A study of Felis catus with 15 samples.

Results

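Keratins are the intermediate filament proteins of epithelial cells, and the 9 described here are the main keratins of simple and stratified epithelium: KRT8, KRT18, KRT19 and KRT7 on the one hand, and KRT5, KRT15, KRT6A, KRT16 and KRT17 on the other. The genes were listed by symbol and looked up in a table of 38995 genes, which held all 9. Each had counts high enough to be tested, KRT6A only because of its counts in cultured tissue. The list was chosen by symbol with measured differences between cultured and fresh tissue, from earlier results of these libraries, in view. Differences from fresh tissue are therefore given below as a description of these 9 genes, with no p-value, and only the comparison of the cultures with each other is given as a test of them.

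A keratin filament is built from a type I keratin paired with a type II keratin. KRT8 (type II) and KRT18 (type I) are the founding pair of simple epithelium, the kind that lines ducts such as that of the epididymis. KRT7 (type II) and KRT19 (type I) join them in many ducts. KRT5 (type II) is the classic keratin of basal cells, which sit on the basement membrane beneath the tall principal cells of this duct, and KRT15 (type I) is found with it in basal layers. KRT6A (type II), KRT16 and KRT17 (both type I) are low in resting skin and are known to be induced in wounded or stressed stratified epithelium.

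The tissue came from domestic cats: the corpus epididymis, the stretch of the duct between caput and cauda. There were 3 groups of 5 RNA-seq libraries: fresh corpus tissue, corpus explants kept in culture, and corpus explants cultured with extracellular vesicles from the caput, the region upstream. The vesicles are membrane-bound particles shed by cells, and the stated question was their effect on the explants' transcripts. No strain, age, culture time or vesicle dose is stated in the sources used here. The sample descriptions carry the codes D0 (fresh), D3 (culture) and D3EV (culture with vesicles), whose meaning is not explained. Nothing says that the libraries of a group come from separate animals, so the spread between them may be partly technical. Libraries are named by group and replicate number. In each of the 15 libraries, epithelial markers other than keratins were present: the summed level of 15 such genes, CDH1 and EPCAM among them, was 2251 to 2734 CPM (counts scaled to a common library size) in fresh tissue, 2337 to 4368 in plain culture and 2625 to 4495 with vesicles.

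Total counts were 17308832 to 27420218 per library. Culture 3 stood apart from the other cultures: 0.179% of its counts came from the 13 mitochondrial protein genes, against 6.23% to 7.48% in the other 4, and it had the highest level of all 9 keratins within its group. Its lead over the next culture ran from 1.49 times for KRT15 to 4.15 times for KRT16. Values in culture are for that reason given with and without it. At the other end, culture 2 had the lowest level within culture for 6 of the 9 keratins, and culture with vesicles 2 the lowest within its group for 8.

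The keratins were more abundant in cultured than in fresh tissue, and unequally so. Together the 9 genes made up 0.139% ± 0.0150 of all counts in fresh tissue (SD, n = 5), with a range of 0.122% to 0.159%. In culture the share was 0.719% ± 0.451 (SD, n = 5), and 0.522% ± 0.111 (SD, n = 4) without culture 3. In culture with vesicles it was 0.582% ± 0.197 (SD, n = 5). The lowest cultured library, culture with vesicles 2 at 0.318%, was above the highest fresh library. KRT6A, KRT16 and KRT17 differed most from fresh tissue, KRT7, KRT5 and KRT19 came next, KRT15 followed, and the pair of KRT8 and KRT18 differed least.

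**Figure D1:**
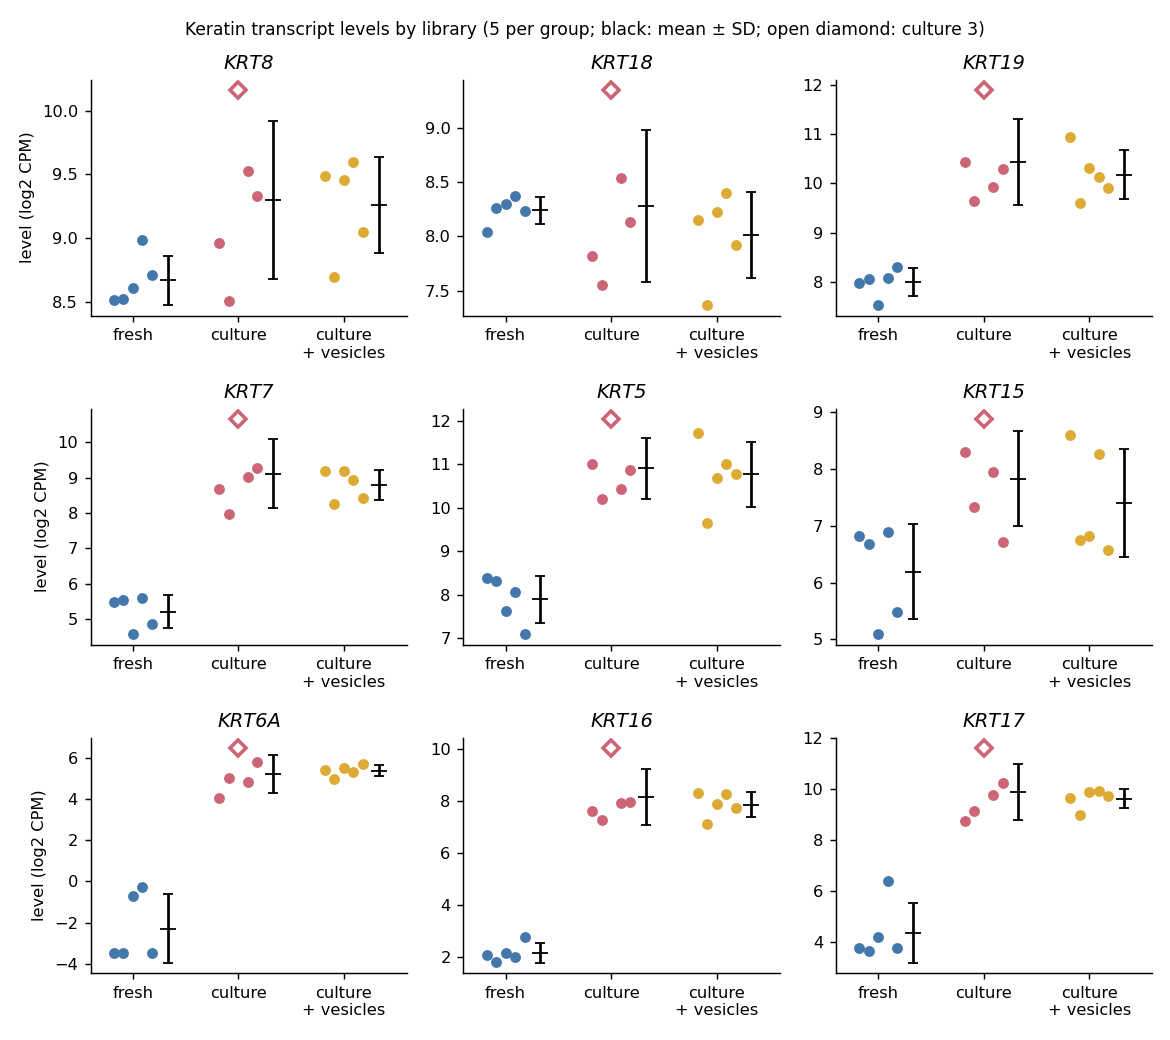
Transcript level of each keratin as log2 CPM (y axis, its own range in each panel) in the 5 libraries of fresh tissue, culture and culture with vesicles, with the group mean ± SD in black and culture 3 as an open diamond. Culture 3 is the highest culture library in all 9 panels, and for 6 genes no cultured library reaches down to the fresh ones; libraries with no KRT6A count sit at the floor set by the prior count.

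The simple-epithelium pair KRT8 and KRT18 differed least from fresh tissue. Levels of KRT8 were 367, 369, 390.4, 507 and 420.2 CPM in fresh 1 to 5, 499, 364, 1142, 737 and 642 in culture 1 to 5, and 716, 415, 702, 775 and 531 in culture with vesicles 1 to 5. The groups overlapped, since culture 2 was lower than all 5 fresh libraries. The fitted difference of culture from fresh tissue was 0.72 ± 0.26 on the log2 scale (SE, n = 5 per group), a 1.65-fold higher level. That call does not stand on every library: without culture 3 the difference was 0.46 and no longer called, and the call was also lost without culture 4, fresh 1, fresh 2 or fresh 3. In culture with vesicles KRT8 was 1.53-fold higher than in fresh tissue (log2 0.61 ± 0.26), which was not called, but with the replicate number as a block it was called at a log2 difference of 0.58.

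For KRT18 the levels were 263, 306, 314, 331 and 302 CPM in fresh tissue, 226, 188, 649, 371 and 281 in culture, and 284, 165, 299, 338 and 242 in culture with vesicles. The 3 groups overlapped fully. Culture differed from fresh tissue by 0.18 ± 0.28 on the log2 scale (SE, n = 5 per group) and culture with vesicles by -0.19 ± 0.28, and neither was called. Without culture 3 the first of these was -0.18. KRT18 was the 1 keratin of the 9 whose average in culture with vesicles lay below fresh tissue.

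KRT19, the smallest keratin, which lacks most of the tail domain, was well above fresh tissue in both cultures. Its levels were 253, 265, 184, 268 and 317 CPM in fresh tissue, 1375, 803, 3795, 973 and 1245 in culture, and 1963, 772, 1276, 1116 and 965 in culture with vesicles. No cultured library overlapped the fresh ones. The level in culture was 6.36-fold that in fresh tissue (log2 2.67 ± 0.39), and 4.30-fold without culture 3. With vesicles it was 4.73-fold (log2 2.24 ± 0.39).

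KRT7, the type II keratin of many glandular ducts, was lowest in fresh 3 and fresh 5. Levels were 44.1, 46.2, 23.8, 48.4 and 28.8 CPM in fresh tissue, 411, 248, 1605, 519 and 616 in culture, and 578, 303, 579, 490.4 and 345 in culture with vesicles. Every cultured library was above every fresh one. The fold over fresh tissue was 17.8 in culture (log2 4.15 ± 0.45) and 12.01 with vesicles (log2 3.59 ± 0.44). Without culture 3 the fold in culture was 11.8.

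Among the basal-cell keratins, KRT5 showed the clear separation and KRT15 did not. KRT5 stood at 333, 321, 197, 267 and 138 CPM in fresh tissue, 2047, 1187, 4198, 1389.7 and 1859.8 in culture, and 3386, 803, 1645, 2070.5 and 1765 in culture with vesicles. Neither culture overlapped the fresh libraries. The fold over fresh tissue was 8.50 in culture (log2 3.09 ± 0.42), 6.49 without culture 3, and 7.69 with vesicles (log2 2.94 ± 0.42).

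KRT15 was split within fresh tissue: fresh 1, 2 and 4 were at 113, 103 and 119 CPM, whereas fresh 3 and fresh 5 were at 34.2 and 44.7. In culture the levels were 316, 161, 469, 246 and 105, and in culture with vesicles 386, 107, 113, 309 and 95.7. Both cultured groups overlapped the fresh libraries. The fold over fresh tissue was 3.14 in culture (log2 1.65 ± 0.50) and 2.45 with vesicles (log2 1.29 ± 0.50). The second of these was no longer called without culture with vesicles 1, where it was 0.90 on the log2 scale, nor without culture with vesicles 4, fresh 2, fresh 3 or fresh 5.

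The keratins of wounded and stressed epithelium were near the limit of detection in fresh tissue or low there. KRT6A had 0 counts in fresh 1, 2 and 5, 12 counts in fresh 3 and 13 in fresh 4. In culture it was at 16.2, 32.6, 87.9, 28.2 and 54.8 CPM, and in culture with vesicles at 41.8, 31.7, 45.3, 38.9 and 51.2, so every cultured library was far above the fresh ones. The fitted fold over fresh tissue was 179 in culture (log2 7.48 ± 0.79) and 170.0 with vesicles (log2 7.41 ± 0.78). These folds rest on 25 fresh counts: without fresh 4 the log2 differences were 8.31 and 8.24.

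KRT16, a partner of KRT6 proteins, had levels of 4.08, 3.37, 4.31, 3.87 and 6.75 CPM in fresh tissue. In culture it was at 194, 154, 1034, 238 and 249 CPM, and in culture with vesicles at 314, 136, 232, 303 and 211. The lowest cultured library, at 136 CPM, was thus far above the highest fresh library, at 6.75. The fold over fresh tissue was 83.5 in culture (log2 6.38 ± 0.56) and 53.5 with vesicles (log2 5.74 ± 0.55). Without culture 3 the fold in culture was 46.9.

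KRT17 was at 13.6, 12.6, 18.2 and 13.5 CPM in fresh 1, 2, 3 and 5 but at 84.7 in fresh 4. Culture gave 433, 562, 3125, 866 and 1206 CPM and culture with vesicles 803, 507, 944, 968 and 859. Even the lowest culture stood above fresh 4. The fold over fresh tissue was 43.5 in culture (log2 5.44 ± 0.71) and 28.7 with vesicles (log2 4.84 ± 0.69). The highest library of culture and that of fresh tissue each moved it: the log2 difference in culture was 4.76 without culture 3 and 6.42 without fresh 4, and with vesicles it was 5.82 without fresh 4.

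Counted over the list, 8 of the 9 keratins were called higher in culture than in fresh tissue, at a Benjamini-Hochberg adjusted p under 0.05 in edgeR's quasi-likelihood fit, and none lower. Among all 18038 genes tested, 54.3% were called in that comparison: 28.7% of all tested were higher and 25.6% lower. In culture with vesicles 7 were called higher than in fresh tissue, against 27.4% of all genes tested called higher, 25.5% lower and 52.9% in either direction. The groups did not overlap for the same 6 genes in each comparison (KRT5, KRT6A, KRT7, KRT16, KRT17 and KRT19), where 20.2% of all genes tested lay wholly above fresh tissue in plain culture and 25.3% with vesicles added. The median log2 difference of the 9 was 3.09 in culture and 2.94 with vesicles, against 0.04 and 0.01 over all genes tested. Nothing is read from these counts, because the genes were listed with such differences known and both comparisons use the same 5 fresh libraries. In whole tissue a change in the share of cells of a type and a change in RNA per cell cannot be told apart.

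**Figure D2:**
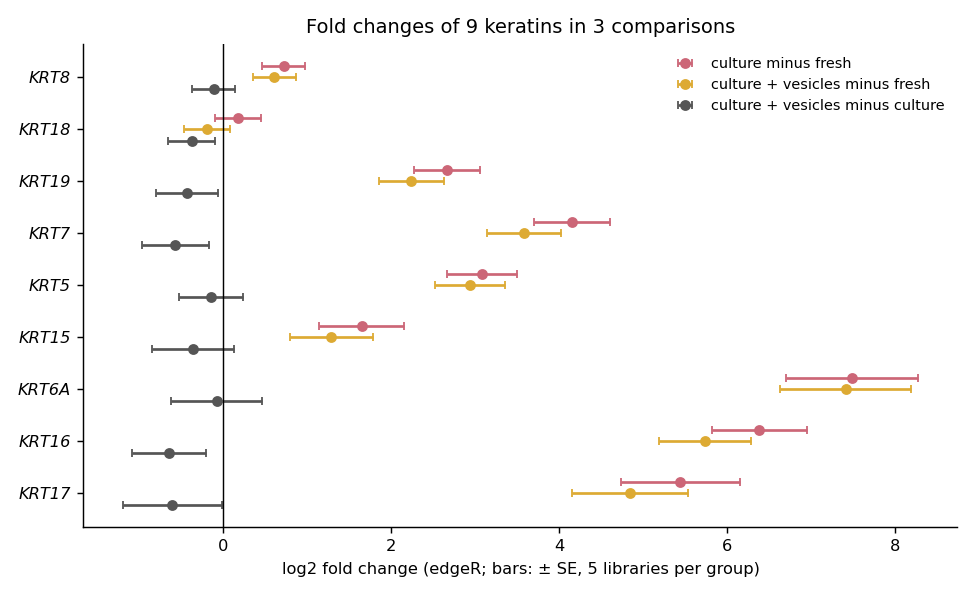
Fitted log2 fold change of each keratin (x axis, bars ± SE, 5 libraries per group) for culture minus fresh, culture with vesicles minus fresh, and culture with vesicles minus culture. The first 2 comparisons run from near 0 for KRT18 to about 7.48 for KRT6A, and the points of the third lie between -0.64 and -0.07.

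The added vesicles did not detectably change any of the 9 keratins, which is the comparison the study was built for. In edgeR's fit 0 of 9 were called, 0 of the 18038 genes tested (0%) were called, and 183 genes (1.01%) had an unadjusted p under 0.05, with no keratin of the list among them. By DESeq2 and by limma-voom 0 genes were called as well, with 269 and 237 genes at an unadjusted p under 0.05, and 1 keratin of the 9 was among the latter. All 9 adjusted p-values were 1 in edgeR's fit.

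The intervals state what sizes of vesicle effect remained possible in the fit with the group as its only term. That fit does not use the pairing by replicate number. With the replicate number as a block, 0 genes were called as well. The log2 differences of culture with vesicles from culture were then -0.06 ± 0.20 for KRT8, -0.34 ± 0.38 for KRT16 and 0.15 ± 0.47 for KRT6A (SE). For KRT8 the log2 difference of culture with vesicles from culture was -0.11 ± 0.26 (SE, n = 5 per group), and its 95% interval covered levels from 0.630 to 1.37 times those in culture. The interval for KRT18 ran from 0.508 to 1.18 times. KRT19 could lie anywhere from 0.426 to 1.30 times its level in culture, and KRT7 from 0.370 to 1.23 times. The pair of simple epithelium, KRT8 and KRT18, thus had the narrowest intervals.

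For KRT5 the vesicle difference was -0.14 ± 0.39 on the log2 scale, with an interval of 0.506 to 1.62 times the culture level, and for KRT15 the interval was 0.372 to 1.63 times. KRT16 gave the most negative value, -0.64 ± 0.44, with an interval of 0.328 to 1.25 times. The widest intervals were those of the other stress keratins. KRT17 ranged from 0.272 to 1.60 times and KRT6A from 0.419 to 2.16 times.

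The sign of these differences rested on culture 3. With all libraries the 9 log2 differences ran from -0.64 to -0.07, with a median of -0.37 against 0.00 over all genes tested. Without culture 3, 7 of the 9 were above 0, up to 0.34 for KRT6A, and KRT15 and KRT18 remained below. Among same-numbered libraries, the one with vesicles was the higher in 1 to 3 of the 5 pairs, depending on the gene. By mean CPM the order was culture, culture with vesicles, fresh tissue for 8 keratins and culture, fresh tissue, culture with vesicles for KRT18. On the mean log2 CPM scale KRT6A was instead higher with vesicles, at 5.37 against 5.22 in plain culture. The other 8 kept their order on that scale, and in none of the 9 were the cultures apart by more than their spread.

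The make-up of the keratin counts differed between fresh and cultured tissue. Shares of counts depend on transcript length, so they are compared between groups and not between genes. KRT8 and KRT18 together held 52.2% ± 6.32 of the counts of the 9 keratins in fresh tissue (SD, n = 5), with a range of 45.3% to 60.4%. In culture they held 14.9% ± 3.55 and with vesicles 15.9% ± 2.49 (SD, n = 5 each), and the highest cultured library, at 20.7%, was well below the lowest fresh one.

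The stress keratins KRT6A, KRT16 and KRT17 went the other way, with 2.29% ± 1.81 of the keratin counts in fresh tissue, 20.7% ± 5.62 in culture and 19.6% ± 3.37 with vesicles (SD, n = 5 each). The highest fresh library was fresh 4 at 5.48%, and the lowest cultured one was at 11.6%. The basal pair KRT5 and KRT15 held 23.9% ± 7.22 in fresh tissue, 34.0% ± 5.67 in culture and 35.3% ± 6.50 with vesicles, and these ranges overlapped. Type II keratins as a whole stayed level, at 46.2% to 53.5% of the counts in fresh tissue, 43.7% to 53.9% in plain culture and 47.9% to 55.7% with vesicles.

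**Figure D3:**
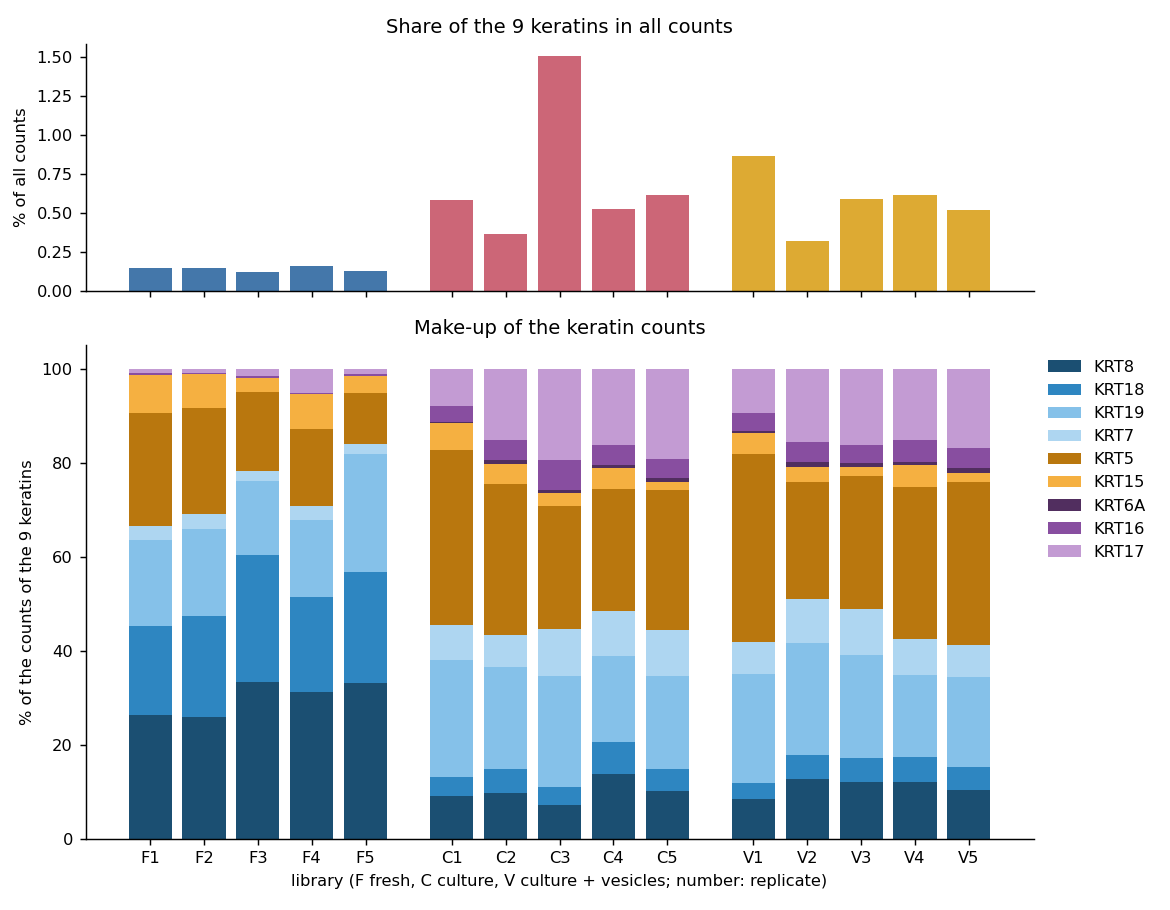
Upper panel, counts of the 9 keratins as a percent of all counts in each of the 15 libraries; lower panel, the percent of those keratin counts that each gene supplied, stacked by library. The upper bars stay at or below 0.159% in fresh tissue and reach 1.51% in culture 3, while KRT8 and KRT18 shrink from 52.2% of the stack in fresh tissue to 14.9% in culture and 15.9% with vesicles.

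Ratios between partners within a library did not need any scaling of the library. The ratio of KRT8 to KRT18 counts was 1.21 to 1.54 in fresh tissue, 1.76 to 2.29 in plain culture and 2.19 to 2.52 with vesicles, so both cultures lay above all fresh libraries. The ratio of KRT18 to KRT19, both type I, was 0.951 to 1.70 in fresh tissue, 0.165 to 0.382 in plain culture and 0.145 to 0.302 with vesicles, again with no overlap. On the type II side KRT7 stood at 0.0609 to 0.125 of the KRT8 count in fresh tissue, 0.681 to 1.41 in plain culture and 0.633 to 0.825 with vesicles. KRT7 relative to KRT8, and KRT19 relative to KRT18, were therefore higher in every cultured library than in any fresh one.

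The basal ratio of KRT5 to KRT15 was 2.25 to 5.77 in fresh tissue, 5.65 to 17.8 in plain culture and 6.71 to 18.4 with vesicles, and culture overlapped fresh tissue through fresh 3. For KRT16 to KRT17 the groups overlapped throughout, at 0.0456 to 0.502, 0.207 to 0.447 and 0.246 to 0.390. Between the cultures, 10 measures (9 ratios and the keratin share of all counts) were compared on the log2 scale by a 2-sided exact permutation test. The smallest p was for KRT8 over KRT18, which was higher with vesicles in 4 of 5 same-numbered pairs by 0.23 on the log2 scale (exact permutation p = 0.0317, adjusted p = 0.317). The other 9 had adjusted p-values of 0.476 to 0.976. Within same-numbered pairs, 3 ratios were higher with vesicles in 5 of 5: KRT5 over KRT15 by 0.29 on the mean log2 scale, KRT6A over KRT16 by 0.45 and KRT6A over KRT17 by 0.41. A 2-sided exact permutation test within pairs, added after the data were seen, gave p = 0.0625 for each, the smallest that 5 pairs allow, and an adjusted p of 0.208. None of the 10 measures passed either test.

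**Figure D4:**
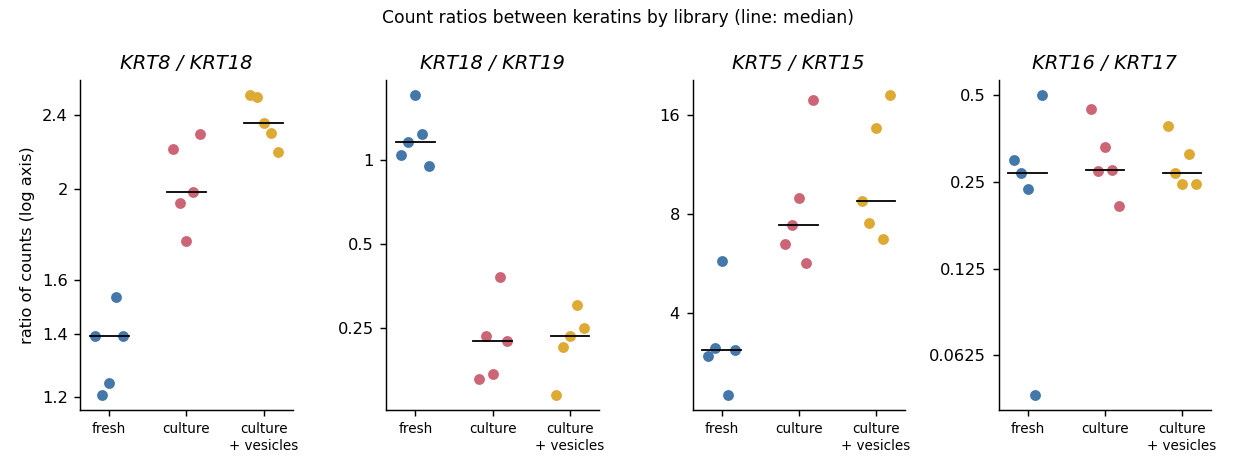
Ratio of counts between keratins within each library (y axis, log scale) for 4 pairs in fresh tissue, culture and culture with vesicles, with a line at the group median of the 5 libraries. KRT8 over KRT18 is above 1.54 and KRT18 over KRT19 below 0.951 in all 10 cultured libraries, whereas the fresh and cultured libraries overlap for KRT5 over KRT15 and KRT16 over KRT17.

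Within groups, some keratins varied together and others did not. For each library the deviation of log2 CPM from its group mean was taken, and the 36 pairs of keratins were correlated over the 15 libraries as a description. Points share their library, and culture 3 is far out for all 9 genes, so each value is followed by the one over 14 libraries. The median r was 0.63, and 0.43 without culture 3. KRT8 and KRT18, which form a filament together, had the highest value at 0.96 and 0.94.

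Among the stress keratins alone, KRT6A and KRT17 had the highest value, at 0.81 and 0.795 without culture 3, both being highest within fresh tissue in fresh 4. KRT16 differed from them: its r with KRT17 was 0.57 and 0.18, and with KRT6A 0.29 and -0.02. It had higher values with KRT18 (0.88 and 0.71), KRT19 (0.88 and 0.65) and KRT8 (0.85 and 0.74). The basal keratins KRT5 and KRT15 had an r of 0.73 and 0.68. The lowest value, -0.07 and -0.24, was between KRT6A and KRT15.

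**Figure D5:**
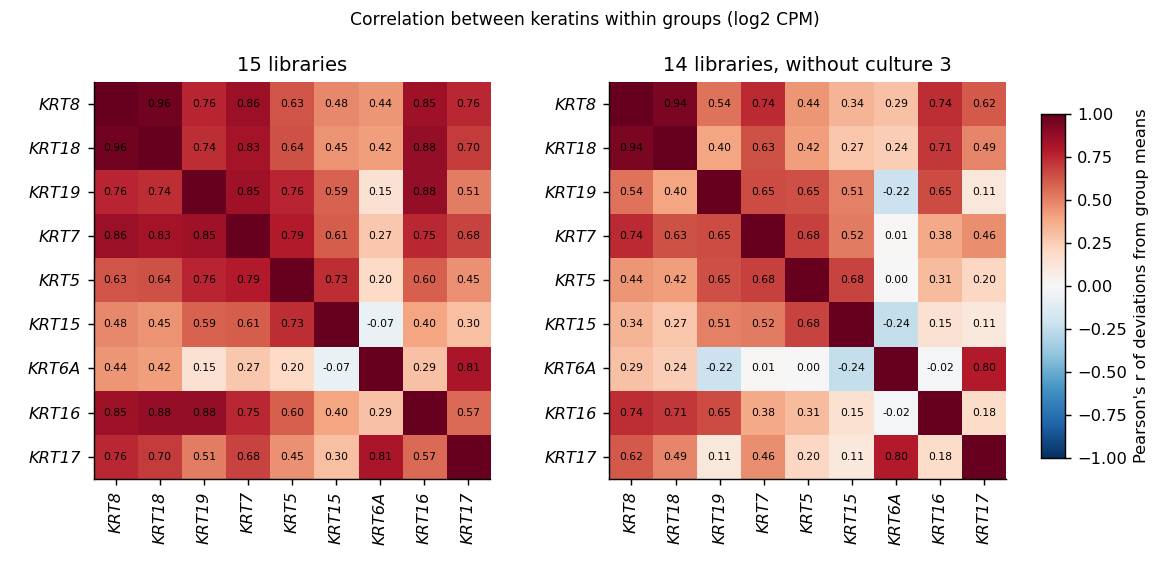
Pearson's r between keratins of the deviations of log2 CPM from group means, over 15 libraries on the left and without culture 3 on the right, on a colour scale from -1 to 1. The KRT8 and KRT18 cell stays at 0.94 or more and the KRT6A and KRT17 cell at 0.795 or more in both panels, while KRT16 and KRT17 drop from 0.57 to 0.18.

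Genes outside the keratin family with the most similar deviations were looked up among 12352 genes with a symbol and a mean log2 CPM of 1 or more. KRT5 was nearest to PARD6G, a cell polarity gene, at an r of 0.94 over 15 libraries and 0.94 without culture 3. For KRT7 the nearest was SFN, the 14-3-3 protein of stratified epithelium, at 0.95 and 0.91. KRT18 was nearest to EZR, which links actin to the apical membrane, at 0.97 and 0.96. NBEAL2 was nearest to KRT8, at 0.97 and 0.96, and ZNF619 to KRT15, at 0.94 and 0.93. These are the highest of many values over few libraries and are given with no p.

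For the stress keratins and KRT19 the leading genes changed with culture 3. RPH3AL led for KRT6A at 0.87 and SPRY1 at 0.93 without that library. For KRT17 the leaders were WDR26 at 0.94 and, without it, KLF6 at 0.93. KRT16 was led by ADCK2 at 0.96 with all libraries. KRT19 was led by KLC3 at 0.93.

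Other genes with a keratin symbol numbered 32. Of these, 12 were tested, 10 had counts too low to be tested, and 10 had 0 counts in all 15 libraries, which allows a level of up to 0.00891 CPM over the whole series. The last include KRT1, the type II keratin of cornifying epidermis, and KRT20, a keratin of the gut lining. Of the 12 tested, 9 were called higher in culture than in fresh tissue, 1 lower and 2 neither, and the counts were the same with vesicles, where 28.7% of all genes tested were higher and 25.6% lower in culture. Only 4 of the 12 would have passed the low-count filter on the fresh libraries alone: KRT80, KRT10, KRT222 and KRT35. The other 8 passed only with their cultured libraries, which favours a higher level there. All 12 are given below as differences from fresh tissue with no p, and the count is no support for a family-wide rise. Between the cultures 0 of the 12 were called, with all adjusted p-values at 1.

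KRT24, a type I keratin with counts too low to be tested, lay in the opposite direction and is named after its values were seen. It had 1.71, 0.883, 0.704, 3.29 and 0.309 CPM in fresh 1 to 5, from 140 counts. The 5 plain cultures held 5 counts, all in culture 2, and the cultures with vesicles 8. Every fresh library was above every cultured one. The other untested keratins went both ways, in counts summed over fresh tissue, plain culture and culture with vesicles. KRT9 had 3, 76 and 44 counts and KRT3 had 0, 17 and 38. KRT74 had 18, 3 and 5 and KRT85 had 17, 3 and 6.

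KRT23, another type I keratin, was at 0.361 to 1.19 CPM in fresh tissue, 19.1 to 158 in plain culture and 41.1 to 76.5 with vesicles. Its log2 difference was 6.60 ± 0.56 in culture and 6.32 ± 0.56 with vesicles. KRT80, a type II keratin, was at 1.01 to 6.93 CPM in fresh tissue and 9.60 to 37.8 in culture, 3.19 ± 0.48 higher on the log2 scale. For both genes no cultured library overlapped the fresh ones.

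KRT4, the type II keratin of moist stratified epithelium such as that of the oesophagus, had 0 counts in all 5 fresh libraries. It was at 45.0, 3.52, 37.9, 6.72 and 9.75 CPM in culture and at 85.3, 0.825, 7.57, 11.8 and 12.6 in culture with vesicles. Against 3 counts over the fresh group the level was higher by at least 744-fold in plain culture and at least 938-fold with vesicles. Replicate 1 was the highest and replicate 2 the lowest in both cultures, whereas replicate 3 differed between them. Without culture with vesicles 1 the fitted log2 difference with vesicles was 10.49 in place of 12.05.

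Keratins of hair and epidermis were detected at low levels. KRT32, a type I hair keratin, was at 0 to 0.412 CPM in fresh tissue and 2.06 to 14.2 in culture, 5.13 ± 0.80 higher on the log2 scale. That difference was 4.31 without culture 3 and 5.93 without fresh 5. KRT77 was 4.77 ± 0.84 higher, from 5 counts in all fresh libraries together, and 5.58 higher without fresh 1. KRT79 had 3 fresh counts, all in fresh 2, and was 66.9-fold higher in culture with a counting interval of 22.6 to 327. KRT2 and KRT39 had 0 fresh counts and were at least 17.8-fold and at least 18.1-fold higher in culture. KRT39 rested partly on culture 5, without which its fitted log2 difference was 5.28 in place of 6.60.

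KRT10, the suprabasal partner of KRT1 in skin, was called higher in culture, by 0.63 ± 0.22 on the log2 scale. That call was lost without culture 2, without fresh 4 and in a fit of only the groups compared. KRT222 was the 1 tested keratin gene called lower, by 1.59 on the log2 scale in culture (SE 0.41) and by 1.29 with vesicles (SE 0.40). KRT78 gave 1.19 ± 0.56 in culture and was not called.

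KRT35, a hair keratin, followed the replicate number and not the group. Replicate 3 was the highest library in each group, at 50.6 CPM in fresh 3, 27.5 in culture 3 and 17.2 in culture with vesicles 3. Replicate 5 came next in each, at 10.9, 4.11 and 17.1 CPM. The remaining libraries lay between 0.695 and 3.80 CPM. Its difference of culture from fresh tissue was -0.77 ± 1.10 on the log2 scale and was not called. It was 0.93 without fresh 3 and -2.13 without culture 3.

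Some members have unnamed protein-coding neighbours in the RefSeq gene order, of which 5 are given here with no p. These were singled out after their values were seen, and how reads shared by similar copies were counted is not given, so each value and that of its neighbour are uncertain. LOC101090912, between KRT9 and KRT16, had 13 counts in all fresh libraries together and was at 60.3, 106, 924, 66.1 and 149 CPM in culture. Its log2 difference was 10.97 ± 1.15 in culture, 9.53 without culture 3 and 11.80 without fresh 4. Culture 3 was thus its highest culture library, as it was for KRT16.

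LOC101100486, next to KRT6A, had 19 fresh counts, all in fresh 5, where KRT6A had 0. In culture it was at 20.8, 41.7, 86.6, 22.8 and 47.5 CPM, in the range of the KRT6A values of the same libraries. The log2 difference was 7.86 ± 0.87, and 12.96 without fresh 5. LOC105260741, its neighbour on the other side, had 0 fresh counts, and its level in culture was at least 173-fold higher. LOC101087886, between KRT36 and KRT15, was 4.15 ± 1.13 higher on the log2 scale, 2.98 without culture 3 and 5.71 without fresh 1, where KRT15 was 1.65 higher. LOC101096492, next to KRT7, did not follow it: the gene had 52 counts in fresh tissue and 77 in culture, its groups overlapped, and its log2 difference was 0.65 ± 0.92, against 4.15 for KRT7.

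Transcripts for proteins that anchor keratin filaments to desmosomes and to the basement membrane changed in part. The gene lists from here on were chosen with earlier results of these libraries known. Differences of their genes from fresh tissue are therefore given with no p. Of 16 linker genes, 10 rose in culture, 1 fell and 5 were not called, with a median log2 difference of 1.38, where 28.7% of all genes tested rose and 25.6% fell. With vesicles 8 rose and 1 fell, with a median of 1.06, where 27.4% of all genes tested rose and 25.5% fell. The desmosomal linker DSP rose by 1.21 ± 0.23 in culture and the cross-linker PLEC by 1.58 ± 0.42, or by 0.76 without culture 3. JUP, the plakoglobin gene, rose by 2.15 ± 0.24, and DSG3, the basal desmoglein, by 3.87 ± 0.36. DST, whose epithelial form ties keratin filaments to hemidesmosomes, fell by 1.08 on the log2 scale (SE 0.24). DSG2, the desmoglein of simple epithelium, gave -0.21 ± 0.20 and was not called.

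Of 18 transcription regulators of epithelial identity, 8 rose, 4 fell and 6 were not called in culture, with a median log2 difference of 0.51. The 4 that fell are near the share of all genes tested that fell, 25.6%, where 28.7% rose. Of the 8 that rose, 2 (FOSL1 and TFAP2C) passed the filter only with their cultured libraries. TP63, the master regulator of basal cells and of KRT5, rose by 1.32 ± 0.23, and ELF3 by 2.66 ± 0.37. EHF rose by 1.18 ± 0.23. PAX8, a regulator of the duct's embryonic lineage, fell by 1.67 (SE 0.21).

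Intermediate filament genes outside the keratin family were read beside them. Of 12 tested, 6 rose in culture, 1 fell and 5 were not called, where 28.7% of all genes tested rose and 25.6% fell. Of the 12, 2 would not have passed the filter on the fresh libraries alone. VIM, the filament gene of mesenchymal cells, rose by 2.10 ± 0.38 and the nuclear lamin gene LMNA by 3.17 ± 0.52, or by 2.23 without culture 3. The muscle gene DES gave 0.28 ± 0.53 and was not called. Among genes of squamous differentiation, 7 of 14 were tested, of which 4 were called higher and 1 lower. The 4 called higher (IVL, LY6D, KLK10 and SERPINB2) passed the filter only with their cultured libraries and are given no p. IVL, the cornified envelope protein involucrin, was 8.45 ± 0.76 higher on the log2 scale, and 9.22 without fresh 5. CSTA was called lower, by 1.69 (SE 0.66). That call was lost with the replicate block and when any single culture library, fresh 1, fresh 3 or fresh 4 was left out, with a value of -0.90 without fresh 1.

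Markers of several cell types moved together with the keratins, and their part in the result was not tested. Basal-cell genes other than keratins had a summed level of 955 to 1180 CPM in fresh tissue, 2818 to 8474 in plain culture and 3628 to 5555 with vesicles. Of these 12 genes 11 rose in culture (median log2 3.53), TP63 among them, where 28.7% of all genes tested rose. BCAM gave -0.08 ± 0.29 and was not called, but without culture 3 it was called lower at -0.52. Culture 3 was the highest library for this list as well, at 8474 CPM. Principal-cell genes went the other way, with 8 of 9 tested lower in culture, where 25.6% of all genes tested were lower. Culture 3 was the lowest of all libraries for this list, at 1193 CPM.

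Mesothelial cells, which line the surface of the organ, also make KRT5, KRT7, KRT8, KRT18 and KRT19. Markers of these cells, 7 genes of which 5 were tested, summed to 49.2 to 74.2 CPM in fresh tissue, 269 to 612 in plain culture and 290.3 to 592 with vesicles. PDPN, BNC1, UPK3B and WT1 rose and GPM6A fell in culture, where 28.7% of all genes tested rose and 25.6% fell. The call of WT1 was lost without culture 2. CALB2 had 0 counts in all 5 libraries of culture with vesicles. Culture 3, at 392 CPM, was in the middle of its group for this list. Genes of dividing cells rose in 8 of 10 cases, against the same 28.7% over all genes tested. Their summed level was 109 to 122 CPM in fresh tissue and 315 to 541 in culture.

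The other marker lists are given by their calls in culture against fresh tissue, to be read beside the 28.7% of all genes tested that were higher and the 25.6% lower. Fibroblast markers had 3 of 9 higher and 1 lower, smooth muscle 2 of 8 higher, endothelium 4 of 8 higher and macrophages 3 of 8 higher. Neutrophil markers had 5 of 6 higher and 1 lower, but 3 of these genes (S100A8, S100A9 and CXCR2) passed the filter only with their cultured libraries. Clear-cell markers had 1 of 7 higher and 2 lower, and ciliated-cell markers 2 of 8 higher and 3 lower. Small counts moved with single libraries. Endothelium had 2 higher without fresh 2. Fibroblasts had 5 higher without culture 3 and 2 lower without culture 2, where macrophages had 1 lower. Clear cells had 1 lower without any one of culture 1, 2, 3 or 5 or fresh 2, 3, 4 or 5. Ciliated cells had 1 higher without culture 3 or fresh 3, and 0 without fresh 1, 2 or 4. Lymphocyte markers were lower in 3 of 5, and germ-cell markers in 6 of 6. Besides neutrophils, other lists held genes that would not have passed the filter on the fresh libraries alone. Macrophages and clear cells had 1 each, germ cells 2 and ciliated cells 3. In the comparison of the cultures with each other 0 genes of any of the 18 lists were called.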

How the data were processed

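Transcripts of fresh corpus epididymis, cultured explants and explants cultured with caput vesicles were sequenced in 5 libraries each, made with a stranded mRNA kit per the labels' protocols. The authors deposited raw gene counts in a single table of 38995 rows. Tools listed in the submitters' processing notes, without roles, are StringTie 2.1.3b, Bowtie2 2.3.4.1, HISAT2 2.1.0 and Trimmomatic 0.38. Not given in the sources used here are the genome build, annotation, counting program, strand setting and treatment of reads matching several genes. The last 2 leave values of similar or overlapping genes uncertain. All gene identifiers matched RefSeq's gene table (assembly F.catus_Fca126_mat1.0), used for names and gene order only. Keratin sequences and transcript lengths were not used here.

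The low-count filter was filterByExpr of edgeR 4.0.16 (minimum count 10, minimum total 15), which kept 18038 genes and removed 20957. Whether a gene would pass it on the 5 fresh libraries alone was checked for the keratins and lists. After TMM scaling, the quasi-likelihood model (glmQLFit and glmQLFTest, R 4.3.3) took all 15 libraries, the group as the only term and 12 residual degrees of freedom. Tests were 2-sided. Called means an adjusted p (Benjamini-Hochberg, over all genes tested) below 0.05. The SE was obtained from the log2 fold change and the F statistic. CPM are counts scaled to the TMM-adjusted library size, and log2 CPM has a prior count of 2. With 0 counts in a group, a fold was taken against 3 counts over the group, and with 1 to 3 counts it has an exact 95% binomial interval. Both cover counting error only. The fit was checked on simulated data.

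The keratins, gene lists and rules were chosen with earlier results of these data known. Named genes are the 9 keratins, the 12 tested other keratins, up to 3 of the most abundant genes of each list described, and the 3 genes of most similar pattern per keratin, of which the leading ones are given. Similarity of levels across all libraries mainly separates fresh from cultured tissue and is not given. JUP, DSG3, DSG2, TP63, ELF3, PAX8, IVL, CSTA, LMNA, DES, BCAM and the mesothelial genes were named for their role or after their values were seen. The same holds for KRT24, KRT9, KRT3, KRT74, KRT85, LY6D, KLK10, SERPINB2, FOSL1, TFAP2C, S100A8, S100A9, CXCR2 and the 5 unnamed neighbours.

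Whether replicate numbers pair the libraries was checked by correlating deviations from group means over all genes. Same-numbered libraries had an r of 0.242 to 0.362 between culture with vesicles and fresh tissue and 0.181 to 0.602 between the cultures, so these were taken as paired by the data. Between culture and fresh tissue it was 0.198 to 0.344 for replicates 1, 2, 4 and 5, each higher than with any other fresh library. For replicate 3 it was 0.033, below the 0.042 of another fresh library, so culture 3 was the exception to the pairing. Results were recomputed with DESeq2 1.42.0, limma-voom and its sample weights (limma 3.58.1), RLE scaling, a replicate block, a stricter filter (1 CPM in 5 libraries), none at all, a fit of only the groups compared, and leaving out each library in turn.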

Additional observations from a re-analysis of the deposited data

Results flagged for a closer look

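A library was set aside for a closer look where its gap to the nearest other library of its group was over 0.71 of the group's range, the 95% point of Dixon's criterion for 5 samples. Of 174 groups of values checked, 20 met it, and chance flags about 1 in 20. Culture 3 was the library in 6 of them. KRT16 stood at 10.01 log2 CPM there, with the other cultures at 7.26 to 7.96. KRT78, a low-level keratin, was at 2.28 against 0.12 to 0.60. The 9 keratins held 1.51% of its counts against 0.365% to 0.615% elsewhere in culture, and mitochondrial protein genes 0.179% against 6.23% to 7.48%. PLEC was at 10.54 log2 CPM with the others at 7.73 to 8.48, and LMNA at 9.56 with the others at 6.77 to 7.21.

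In fresh tissue, fresh 4 was high for KRT17, at 6.41 log2 CPM where the remaining libraries had 3.67 to 4.19, and for the regulator ELF3, at 7.48 where they had 5.84 to 6.09. The KRT5 to KRT15 ratio was 5.77 in fresh 3, with the others at 2.25 to 3.13, and BCAM was lowest in that library at 9.08. A pair of low-count genes stood out through a single library with any counts: KRT79 in fresh 2, at -2.25 log2 CPM, and LOC101100486 in fresh 5, at 0.10. BNC1 was lowest in fresh 5, at 2.40.

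Among cultured libraries, the KRT5 to KRT15 ratio was 17.8 in culture 5, against 5.65 to 8.95. WT1 was highest in culture 2, at 4.53 log2 CPM with the others at 1.51 to 2.30, and KRT79 was lowest in culture 4, at -0.81. Culture with vesicles 2 was lowest for KRT17, at 8.98 with the others at 9.65 to 9.92, for DSP, at 8.22, and for TP63, at 7.05. PLEC was lowest in culture with vesicles 5, at 8.15.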

How the results depend on the processing

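The count of the 9 keratins called higher or lower than fresh tissue was 8 in culture under every alternative that kept all libraries, and 7 or 8 with vesicles. Leaving out 1 library at a time gave 7 to 8 in culture, 6 to 8 with vesicles, and 0 between the cultures. Over all genes the same removals gave 9039 to 11090 calls in culture, 8833 to 9125 with vesicles and 0 between the cultures. Of the 12 tested other keratins 10 were called with vesicles, but 6 in a fit of only the groups compared. That fit applies the low-count filter again, to its own libraries. KRT2, KRT39, KRT77 and KRT79 fail it there, being below the minimum in all fresh libraries and at least 1 library with vesicles. These genes were thus left untested in that fit, and not tested without a call. Of the list counts in culture, 44 moved by over 1.5 times under an alternative and 568 did not.

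With the replicate number as a block, KRT8 with vesicles against fresh tissue became called (log2 0.58), CSTA in culture was lost, and no other call of a named gene changed. KRT8 with vesicles (log2 0.61, not called) also became called by limma-voom (0.65), with only the groups compared (0.61), without culture with vesicles 2 (0.72) and without fresh 4 (0.70). KRT78 with vesicles was called by limma-voom only (1.14). BCAM was also called lower in culture by limma-voom (-0.43).

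Signs changed as follows, and no value that changed sign was called. For culture with vesicles against culture, limma-voom gave 0.147 for KRT5, 0.739 for KRT6A, 0.064 for KRT7, 0.172 for KRT8, 0.167 for KRT16, 0.311 for KRT17, 0.017 for KRT18 and 0.087 for KRT19, and the block gave 0.150 for KRT6A. Leaving out 1 library at a time, the same difference ran from -0.465 to 0.255 for KRT5, -0.309 to 0.342 for KRT6A, -0.777 to 0.034 for KRT7, -0.266 to 0.163 for KRT8, -0.839 to 0.198 for KRT16, -0.848 to 0.090 for KRT17 and -0.691 to 0.148 for KRT19. Each upper end was without culture 3, and KRT5 was also above 0 without culture with vesicles 2, at 0.033. For culture against fresh tissue, KRT18 was -0.179 by limma-voom and ran from -0.176 to 0.340 over the removals. KRT35 ran from -2.13 to 0.929 there, and with vesicles from -1.31 to 0.919, or 0.119 by limma-voom. LOC101096492 ran from -0.397 to 1.14 in culture, and with vesicles from -0.679 to 0.211, or 0.039 by limma-voom. In culture DES ran from -0.309 to 0.527 and BCAM from -0.519, where it was called, to 0.054. The cause of these changes was not tested. Depth limits KRT6A and the genes at or near 0 counts in fresh tissue, whose fold changes rest on few counts.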
